A study of Mus musculus with 12 samples.

Results

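The genes described here encode the organic matrix of bone and the proteins by which osteoblasts and osteocytes make and control it. The list held 10 genes, and every non-control probe carrying one of these names in the scanner output was taken, whatever its signal. The array named 9 of them (Col1a1, Col1a2, Bglap1, Sp7, Dmp1, Phex, Mepe, Sost and Sparc) on 14 of its 41174 probes, and no probe carried the name Bglap2. The measured tissue was the microdissected hypertrophic zone of the tibial growth plate at 14 days of age, and each of 4 groups held 3 mice with an array apiece. Schmid mice were homozygous for the Col10a1 p.Asn617Lys mutation, which models metaphyseal chondrodysplasia type Schmid, and Cog mice carried the ColXTgcog transgene, in which the collagen X promoter drives the misfolding cog form of thyroglobulin in hypertrophic chondrocytes. Cog mice with the transgene on one or on both chromosomes were not told apart. Each mutant was set against wildtype littermates of its own background, called here Wt_Schmid and Wt_Cog, and the design asks how each mutation changed expression in this zone and whether the changes differed between the mutants.

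Bone matrix is built mainly of type I collagen, a fibre of chains encoded by Col1a1 and Col1a2. Osteoblasts, whose formation needs the transcription factor osterix (Sp7), secrete it together with osteonectin (Sparc) and osteocalcin (Bglap). Osteoblasts buried in the mineral become osteocytes, which make Dmp1, Phex, Mepe and, when mature, sclerostin (Sost), a secreted inhibitor of Wnt signalling. In the growth plate the hypertrophic zone borders on newly formed bone, so a dissected zone can hold some osteoblasts, vessels and marrow cells next to its chondrocytes, and in such bulk samples fewer cells of a type and less RNA per cell cannot be told apart.

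The probe of osteocalcin is shown first, in lower case with no part marked, since mouse osteocalcin genes are close copies and its name does not tell them apart. Bglap1 is an older name that RefSeq gives as a synonym of both Bglap and Bglap2. The probe lies at chr3:88497436-88497495 on the minus strand in build mm7 of the array's annotation.
Bglap1: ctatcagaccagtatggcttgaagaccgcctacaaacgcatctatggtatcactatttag
Whether it also bound transcripts of other osteocalcin genes was not tested, and the values called Bglap1 are those of this probe.

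The probes on which the Schmid comparison turned besides osteocalcin were the brighter of 2 Sost probes and the second of 3 Col1a1 probes, printed next in lower case, with no part marked. The Sost probe was placed on unassigned sequence of mm7 and the Col1a1 probe at chr11:95047002-95047061 on the plus strand, 13.8 kb before the brightest Col1a1 probe (chr11:95060800-95060859).
Sost: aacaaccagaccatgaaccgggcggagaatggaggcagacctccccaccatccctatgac
Col1a1: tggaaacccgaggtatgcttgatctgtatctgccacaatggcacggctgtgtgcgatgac

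Signals are given as normalised log2 values, and a fold change below wildtype is written as a negative number. A probe was called at an adjusted p of 0.05 or less in limma's moderated test, with Benjamini-Hochberg adjustment over all 41174 probes, and a fold change of at least 2. The number of 3 arrays a group limits the precision. On the 12 arrays, 39.6 to 61.8% of spots were well above background. Negative control spots, which match no mouse transcript, had a median raw signal between 202 and 617 in Schmid and between 977 and 1894 in the other groups. On the normalised log2 scale these medians were 8.78 to 8.87 in Schmid and 9.04 to 9.22 in the other groups. The floor for dim probes was thus lower in Schmid, and its part in their differences was not tested. The 3 Schmid arrays shared a slide that held no other array, and mutants and their wildtype littermates never shared a slide. Slide and genotype therefore cannot be told apart in any difference between a mutant and its wildtype given here. The labelled tissue was checked on 6 genes of hypertrophic chondrocytes (Col10a1, Ihh, Mmp13, Vegfa, Pthr1 and Akp2), which were all well above background on the 12 arrays.

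In Schmid hypertrophic zones, transcripts of type I collagen chain Col1a1 and of sclerostin were lower than in wildtype, and no gene of the list was higher. Of the 14 probes 3 were called, all lower, against 10.5% of all probes called either way and 4.69% called lower. They belonged to 2 of the 9 genes. With the scanner software's processed signal in place of normexp, calls over the whole array rose from 4310 (1930 lower) to 6872 (3984 lower) of 41174 probes. The share of lower ones among the calls turned from 44.8 to 58%. On the list 3 probes were again called, all lower, while the count over the array had risen. Osteocalcin, Dmp1 and Phex had log2 differences below -1 whose adjusted p was between 0.0588 and 0.0939, so they did not pass, while Col1a2 had a difference near 0. On 12 of the 14 probes the difference was negative, compared with 55.2% of all probes, and on 6 probes all Schmid arrays lay below all Wt_Schmid arrays, which held for 26% of all probes. At the brightest probe of each gene the median log2 difference was -1.10 over the 9 genes and -0.09 over all genes of the array, and over the 14 probes it was -0.47 against -0.06 over all probes.

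**Figure D1:**
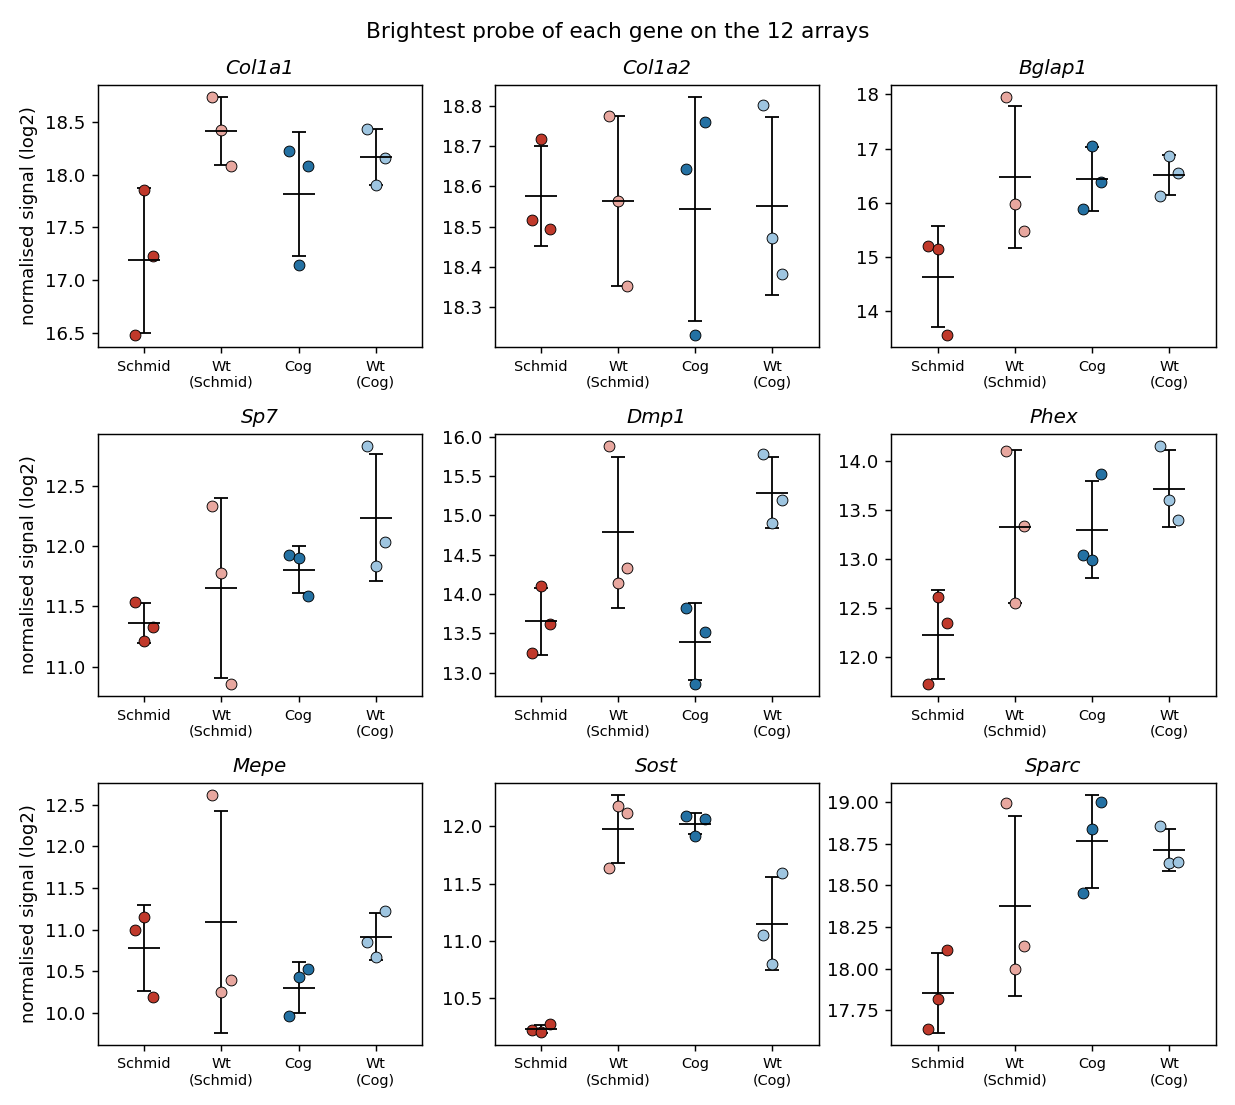
Normalised log2 signal of the brightest probe of each of the 9 genes (y axis, a separate scale for each gene) in the 4 groups (x axis). Points are single arrays, and the bar and whiskers are the mean and SD of 3 arrays. The Sost points of Schmid lie between 10.20 and 10.27, below every other array, and the Dmp1 points of Cog lie between 12.85 and 13.82, below every Wt_Cog array.

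The chains of type I collagen did not show the same difference. The brightest Col1a1 probe, the mean of 10 spots, read 16.48, 17.86 and 17.23 in Schmid and 18.74, 18.43 and 18.09 in Wt_Schmid. All Schmid arrays were below all wildtype arrays, although Schmid replicate 2 came within 0.227 of the lowest wildtype. The fold change was -2.35 (log2 -1.23, SE 0.37, limma adjusted p = 0.0361). The second Col1a1 probe read 9.62, 9.74 and 9.58 in Schmid and 10.22, 11.71 and 12.14 in Wt_Schmid, a fold change of -3.27 (log2 -1.71, SE 0.44, limma adjusted p = 0.0190). On this probe the Schmid signals were only 1.45 to 1.61 times the median negative control spot of their array, so the size of its fold rests on a signal near background. The third Col1a1 probe had a log2 difference of -0.41 (SE 0.19, limma adjusted p = 0.134), and it was well above background on 3 Schmid arrays and 2 Wt_Schmid arrays.

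Both Col1a1 calls depended on single arrays. Without Schmid replicate 1, the log2 difference of the brightest probe was -0.87 with a limma adjusted p of 0.123 and that of the second probe -1.70 with 0.0576. Without Schmid replicate 3 the adjusted p was 0.0807 and 0.0553, and without Wt_Schmid replicate 2 it was 0.0960 and 0.0740. Without Wt_Schmid replicate 1 the brightest probe had an adjusted p of 0.0788, and without Wt_Schmid replicate 3 the second had 0.0639. The direction was the same in every one of these fits. In the settings that left out no array, the call was lost in 3 of 15 for the brightest probe. For the second probe it was lost in 1 of 14, and neither difference turned sign.

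Col1a2, the partner chain, read 18.52, 18.72 and 18.50 in Schmid and 18.78, 18.56 and 18.35 in Wt_Schmid. The ranges overlapped and the log2 difference was 0.01 (SE 0.17, limma adjusted p = 0.965). Whether the differences of the chains were themselves different was not tested. The other Col1a2 probe did not rise well above background anywhere.

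Sost gave the largest test statistic of the list. Its brighter probe read 10.22, 10.20 and 10.27 in Schmid and 11.63, 12.18 and 12.12 in Wt_Schmid. The 3 Schmid values lay within 0.0708 of each other and the highest was 1.36 below the lowest wildtype value. The fold change was -3.36 (log2 -1.75, SE 0.20, limma adjusted p = 0.00044), and the adjusted p was at most 0.00443 in all 21 other settings tried. The fold fell below 2 in 1 of these, the mean over both Sost probes (log2 -0.79). The second Sost probe lies 4.02 kb from the first and was dim. It was well above background on 3 Schmid arrays, 1 Wt_Schmid array and 1 Wt_Cog array, and had a log2 difference of 0.17 (SE 0.15, limma adjusted p = 0.409) in Schmid. The Sost result therefore rests on a single probe.

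Because the background differed between arrays, the raw Sost signal was also divided by the median negative control spot of the same array. This ratio was 2.25 to 2.44 in Schmid, 3.31 to 4.32 in Wt_Schmid, 3.26 to 3.88 in Cog and 2.19 to 3.05 in Wt_Cog. For Sost the Schmid arrays lay below both the Wt_Schmid and the Cog arrays on this scale too, but in the range of the Wt_Cog arrays. The brightest Col1a1 probe overlapped on this scale, with 213 to 485 in Schmid and 300 to 469 in Wt_Schmid. When the negative control spots were used as the background before normalization, the log2 difference of Sost in Schmid was -2.33 (limma adjusted p = 0.000336).

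**Figure D2:**
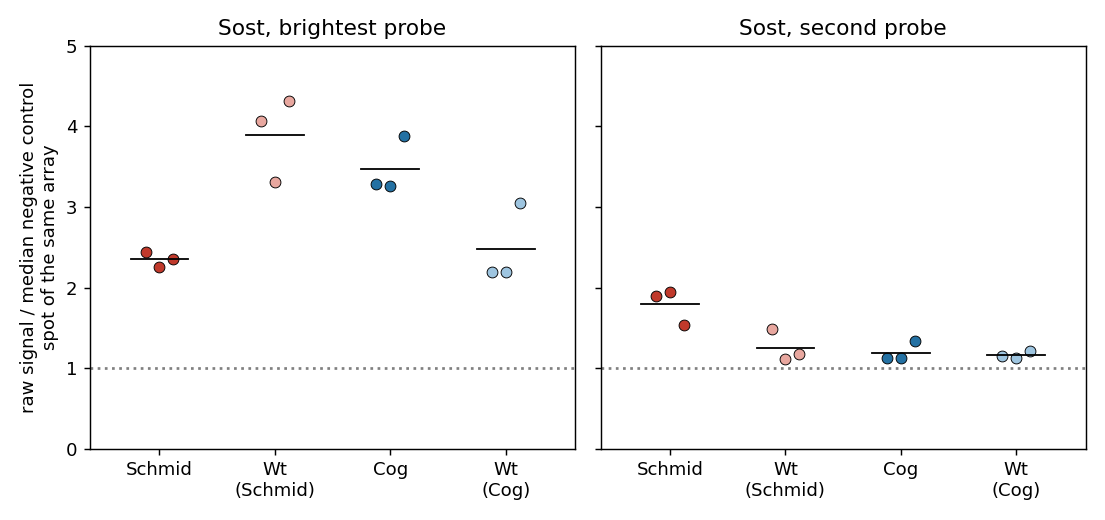
Raw signal of the 2 Sost probes divided by the median negative control spot of the same array (y axis, no unit) in the 4 groups (x axis). Points are single arrays, lines are group means and the dotted line marks the negative control level. On the brightest probe Schmid (2.25 to 2.44) and Wt_Cog (2.19 to 3.05) are low and Wt_Schmid (3.31 to 4.32) and Cog (3.26 to 3.88) are high, while the second probe stays between 1.11 and 1.94 in all groups.

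Osteocalcin, a small calcium-binding protein of mature osteoblasts, had the largest log2 difference of any probe of the list in Schmid without passing the test. The Bglap1 probe read 15.20, 15.15 and 13.55 in Schmid and 17.96, 15.98 and 15.48 in Wt_Schmid. All Schmid arrays were below all wildtype arrays, but the wildtype arrays alone spread over 2.47 units. The fold change was -3.58 (log2 -1.84, SE 0.64, limma adjusted p = 0.0588). Without Wt_Schmid replicate 1 the log2 difference was -1.1 (limma adjusted p = 0.132). The adjusted p ranged from 0.0163 to 0.185 over 21 other settings, 6 of which called it, among them the fit with the replicate number as a block (adjusted p = 0.0163).

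The phosphate-regulating genes of the osteocyte were lower in value in Schmid and did not pass. Dmp1, an acidic phosphoprotein of the osteocyte matrix, read 13.24, 14.10 and 13.61 in Schmid and 15.89, 14.14 and 14.33 in Wt_Schmid (log2 -1.13, SE 0.46, limma adjusted p = 0.0939). The groups were separated by 0.0363 between their nearest arrays. Phex, a membrane endopeptidase whose loss causes X-linked hypophosphataemia, lay at 11.73 to 12.62 in Schmid against 12.55 to 14.11 in Wt_Schmid (log2 -1.10, SE 0.41, limma adjusted p = 0.0722). Mepe, a phosphoglycoprotein of osteocytes, ranged from 10.20 to 11.15 and from 10.25 to 12.62, with overlapping ranges (log2 -0.31, SE 0.54). Without Wt_Schmid replicate 1 the log2 difference was -0.58 for Dmp1, -0.71 for Phex and 0.46 for Mepe, and none passed. Phex passed without Wt_Schmid replicate 2 (log2 -1.49, limma adjusted p = 0.0333).

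Sp7, the osteoblast transcription factor, lay at 11.22 to 11.54 in Schmid against 10.86 to 12.33 in Wt_Schmid (log2 -0.29, SE 0.35, limma adjusted p = 0.567). Sparc, a collagen-binding glycoprotein that chondrocytes also make, had log2 differences of -0.52 (SE 0.25) and -0.37 (SE 0.18) on its 2 probes, with limma adjusted p of 0.153 and 0.154. On the second of these the Schmid arrays, at 17.35 to 17.65, lay below the Wt_Schmid arrays, at 17.82 to 17.95.

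In Cog hypertrophic zones Dmp1 was the only gene of the list called, and it was lower. This was 1 of 14 probes, where 2.31% of all probes were called either way and 0.748% were called lower. Sost and the second Sparc probe were higher by an adjusted p of 0.05 or less, with fold changes under 2. On 10 of the 14 probes the difference was negative, compared with 50.5% of all probes. The median log2 difference at the brightest probe was -0.35 over the 9 genes and -0.003 over all genes, and over the 14 probes it was -0.10 against -0.004 over all probes.

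Dmp1 read 13.82, 12.85 and 13.51 in Cog and 15.78, 14.90 and 15.20 in Wt_Cog. Every Cog array was at least 1.08 below every Wt_Cog array. The fold change was -3.72 (log2 -1.90, SE 0.46, limma adjusted p = 0.0438). This call was at the edge of the threshold. In each of the 6 fits that left out a Cog or a Wt_Cog array, Dmp1 had a log2 difference between -2.11 and -1.63 and an adjusted p between 0.0609 and 0.118. It was also lost in 7 of the 15 other settings, in all of which it was lower in Cog.

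Sost read 12.09, 11.92 and 12.07 in Cog and 11.05, 10.80 and 11.59 in Wt_Cog, so all Cog arrays were higher. The fold change was 1.84 (log2 0.88, SE 0.20, limma adjusted p = 0.0377). The second Sparc probe read 18.34, 17.95 and 18.15 in Cog and 17.80, 17.15 and 17.18 in Wt_Cog, with a fold change of 1.71 (log2 0.77, SE 0.18, limma adjusted p = 0.0381). Its brightest probe did not share this difference (log2 0.05, SE 0.25, limma adjusted p = 0.930). These were the 2 probes on which all Cog arrays lay above all Wt_Cog arrays, as 16.4% of all probes did. All Cog arrays lay below on 2 probes, those of Dmp1 and Mepe, as 13.0% of all probes did. Markers of other cells also differed in value between these groups. The log2 of the summed linear signal of 8 leukocyte genes was 16.53 to 16.98 in Cog and 14.88 to 15.38 in Wt_Cog. Bright genes weigh most in such a sum. None of the 8 was called, and their median log2 difference was 0.73. The sum of 7 endothelial genes was lower in all Cog arrays than in all Wt_Cog arrays. The part of these markers in the Cog differences was not tested.

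The remaining genes differed in Cog by less than 1 on the log2 scale. Mepe had a difference of -0.61 (SE 0.54), Sp7 of -0.43 (SE 0.35) and Phex of -0.42 (SE 0.41). The brightest Col1a1 probe had -0.35 (SE 0.37), Bglap1 had -0.07 (SE 0.64) and Col1a2 had -0.01 (SE 0.17). Among these, the limma adjusted p was 0.519 or higher. The Bglap1 arrays of Cog alone spread over 1.18 units, so a change of that size would not have been detectable.

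**Figure D3:**
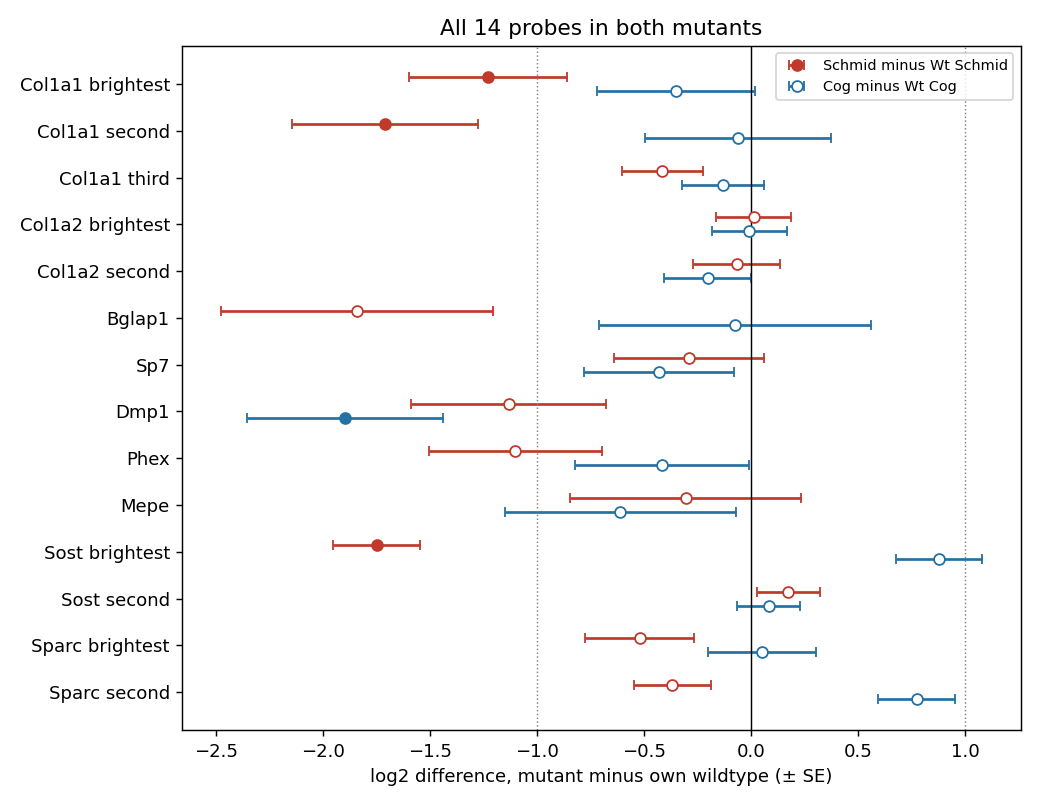
Log2 difference between each mutant and its own wildtype (x axis, with SE) on all 14 probes (y axis, named by gene and by order of signal where a gene has several probes). Filled points passed an adjusted p of 0.05 and a fold change of 2, and dotted lines mark a fold change of 2. The 3 filled Schmid points belong to Col1a1 and Sost at -1.23, -1.71 and -1.75, and the filled Cog point is Dmp1 at -1.90.

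The mutants were compared directly through the difference between their effects, each taken against its own wildtype. Of the 14 probes 2 were called, both lower in Schmid than in Cog, against 10.3% of all probes called either way and 5.88% called lower. Sost differed most, with log2 -1.75 in Schmid and 0.88 in Cog, a difference of -2.63 (SE 0.29, limma adjusted p = 0.000708). It passed in all 26 other settings, with differences from -3.40 to -1.27. The second Sparc probe had -0.37 in Schmid and 0.77 in Cog (difference -1.14, SE 0.25, limma adjusted p = 0.0140), and was not called in 4 of 25 other settings.

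No difference between the mutants passed for the other genes. The second Col1a1 probe had a difference of -1.65 (SE 0.62, limma adjusted p = 0.0939), Bglap1 of -1.77 (SE 0.90, adjusted p = 0.202) and the brightest Col1a1 probe of -0.88 (SE 0.52, adjusted p = 0.269). Dmp1, called in Cog and not in Schmid, had a difference of 0.76 (SE 0.64, limma adjusted p = 0.439), so its changes in the mutants were not shown to differ.

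The wildtype groups differed in background and slide. None of the 14 probes was called between them, against 0.469% of all probes. At an unadjusted p of 0.05 or less there were 2 of the 14, against 14.1% of all probes. The levels of Sost in the wildtypes bear on the comparison of the mutants. Sost was higher in Wt_Schmid than in Wt_Cog by a fold of 1.78 (log2 0.83, SE 0.20, limma adjusted p = 0.0915). All Wt_Schmid arrays were above all Wt_Cog arrays on this probe and on the second Sparc probe, as on 9.51% of all probes. In order of mean, Sost was at 12.03 ± 0.10 (SD, n = 3) in Cog, 11.98 ± 0.30 in Wt_Schmid, 11.15 ± 0.41 in Wt_Cog and 10.23 ± 0.04 in Schmid, and the ranges of the first pair overlapped. Without Wt_Schmid replicate 1 the wildtype difference was called (log2 1.0, limma adjusted p = 0.0310).

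The arrays of a group did not vary alike for all genes. Wt_Schmid replicate 1 was above its group mean by 1.48 for Bglap1, 1.53 for Mepe, 1.11 for Dmp1, 0.78 for Phex, 0.68 for Sp7 and 0.62 for Sparc on the log2 scale, and below it by 0.35 for Sost. The same array held the highest summed signal of its group for 8 red cell genes (log2 19.96, against 19.55 and 17.95). It also did for 8 leukocyte genes (log2 18.89, against 17.40 and 14.77). Without this array, the log2 difference in Schmid was called on 2 of the 14 probes of the list. Over the whole array the calls then rose from 4310 to 6375 of 41174 probes.

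**Figure D4:**
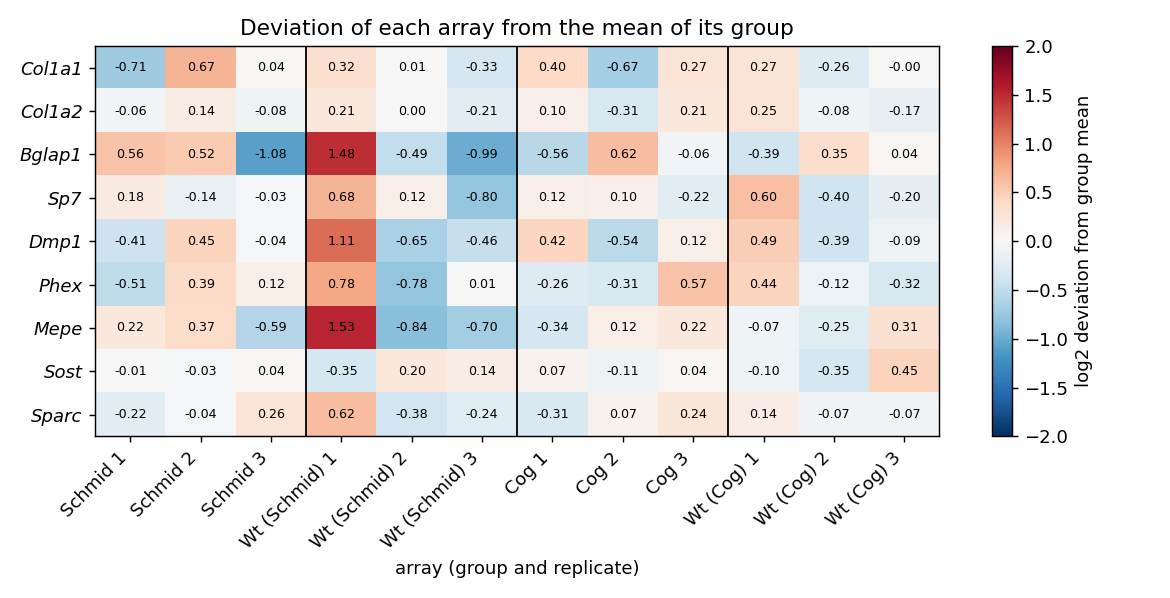
Deviation of each array from the mean of its group in log2 units (colour and printed value) for the brightest probe of each gene (rows) on the 12 arrays (columns, black lines between groups). Wt_Schmid replicate 1 is high for Bglap1 (1.48), Mepe (1.53) and Dmp1 (1.11), and the Col1a1 row varies most within Schmid (-0.71 to 0.67).

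As a description, the deviations from the group means were correlated over the 12 arrays, which share normalization and, in part, slides. Among genes other than osteocalcins, Bglap1 varied most like LOC436177 (Pearson's r = 0.906), followed by Mrps31 (0.888), Rpl29 (0.874) and the list's own Mepe (0.870), among 12804 probes well above background on all arrays. Col1a1 varied most like Adamts2, the enzyme that removes the aminopropeptide of procollagen I (0.970), followed by Dido1 (0.909), TC1540057 (0.886), Rcor2 (0.880) and Glg1 (0.872). Within the list, Dmp1 went with Phex (0.783), Col1a2 (0.770) and Col1a1 (0.757). Col1a1 and Bglap1 did not vary together (-0.04), and Sost had a negative r with Bglap1 (-0.55).

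Upstream sequences are shown for osteocalcin and Mepe, the members that varied most alike. Osteocalcin is a known target of Runx2, the factor that commits cells to the osteoblast lineage and that binds the core ACCACA, read TGTGGT on the other strand. The 250 bases before the start of each gene come from RefSeq in build GRCm38.p6, with both forms of the core in capitals and the start just after the last base. The first lies at chr3:88384467-88384716 on the minus strand and the second at chr5:104325079-104325328 on the plus strand.
Bglap: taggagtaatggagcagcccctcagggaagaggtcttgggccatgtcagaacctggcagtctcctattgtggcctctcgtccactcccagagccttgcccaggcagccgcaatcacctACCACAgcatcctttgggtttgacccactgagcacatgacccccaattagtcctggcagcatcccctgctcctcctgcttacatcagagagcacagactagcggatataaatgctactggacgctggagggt
Mepe: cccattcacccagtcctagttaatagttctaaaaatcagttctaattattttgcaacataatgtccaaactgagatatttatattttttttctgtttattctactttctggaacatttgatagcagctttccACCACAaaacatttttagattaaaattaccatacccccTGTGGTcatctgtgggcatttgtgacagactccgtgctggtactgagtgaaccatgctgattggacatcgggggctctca
The core stood 132 bases before the Bglap start and 118 and 80 bases before that of Mepe. Of the listed genes 7 had entries, with 8 windows in all. The core was in 3 windows (37.5%), the third being that of the later Dmp1 start, and in 14.0% of all 32851 windows of this length. These matches are letters in a window and no measurement of binding. The study also lists Runx2 among its markers of hypertrophic cartilage, so its level here is not particular to osteoblasts. Whether Runx2 had a part in the differences of the bone genes was not tested. Runx2 itself was at 14.62 ± 0.09 in Schmid and 15.30 ± 0.31 in Wt_Schmid (SD, n = 3; fold change -1.6, limma adjusted p = 0.0271), under the fold limit.

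The partners of these genes were taken from fixed lists and are given at the brightest probe of each gene. At this probe 5.8% of all genes were called higher and 5.75% lower in Schmid, 1.89% and 0.837% in Cog, and 4.38% and 7.02% in the difference between the mutants. Of 11 further osteoblast regulators 1 was called in Schmid. Msx2, a homeobox factor of osteoblast precursors, was higher (fold change 2.08, limma adjusted p = 0.0368), and in Wt_Schmid it was well above background on 1 of 3 arrays. It was called in 4 of 6 other scalings and backgrounds. None was called in Cog.

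Among 17 partners in bone matrix and mineral, 3 were lower and 1 higher in Schmid. Mgp, the matrix Gla protein that inhibits mineralization, fell from 17.08 ± 0.42 to 13.70 ± 0.30 (SD, n = 3; fold change -10.4, limma adjusted p = 0.000190). Ifitm5, a membrane protein of osteoblasts, fell by 3.64-fold from 12.19 ± 0.17 to 10.33 ± 0.09 (adjusted p = 0.00433). Akp2, the older name of the gene for tissue-nonspecific alkaline phosphatase, had a fold change of -2.16 (adjusted p = 0.0210), and Col5a1, a chain of the type V collagen found in type I fibrils, had 2.48 (adjusted p = 0.0497), a call kept in 1 of 6 other scalings and backgrounds. Bone sialoprotein Ibsp had a log2 difference of -2.06 and did not pass. The study, which used Ibsp as a hypertrophic zone marker, reported by qPCR that it was much lower in Schmid than in wildtype. None of the 17 was called in Cog, and Mgp (log2 -3.38 in Schmid, 0.10 in Cog) and Akp2 (-1.11 and 0.89) were called in the difference between the mutants.

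Of 15 genes of collagen I processing 3 were lower and 2 higher in Schmid, and the other 10 did not pass. Pcolce, a protein that enhances cleavage of the carboxypropeptide, fell by 4.89-fold (limma adjusted p = 0.00205), Adamts2 had a fold change of -3.77 (adjusted p = 0.00152) and Bmp1, the carboxypropeptidase, had -3.58 (adjusted p = 0.00160). P4hb, a subunit of prolyl 4-hydroxylase that is also a disulfide isomerase, had 2.39 (adjusted p = 0.0181), and Loxl2, a lysyl oxidase, had 3.49 (adjusted p = 0.0172). In Cog, Loxl2 was the gene of these 15 that was called (fold change 4.61, adjusted p = 0.0247). Pcolce, Adamts2 and Bmp1 were lower in Schmid than in Cog in the direct comparison, with log2 differences of -1.90, -1.52 and -1.78, and in 6 other scalings and backgrounds these were called in 3, 3 and 4.

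Of 7 osteocyte partners Fgf23, the phosphate-lowering hormone of osteocytes, was called in Schmid, where it was 2.15-fold lower at 9.49 ± 0.08 against 10.59 ± 0.21 (SD, n = 3; limma adjusted p = 0.000389) and well above background on 2 of 3 Schmid arrays. Fgf23 and podoplanin (Pdpn, a surface protein of early osteocytes) were lower in Schmid than in Cog in the direct comparison, by log2 -1.42 and -1.87, and Capg, an actin-capping protein, was higher by 1.75. In 6 other scalings and backgrounds Fgf23 was called in 4 in Schmid and in 4 in the direct comparison, and Capg in 4. None of 12 genes of the sclerostin and Wnt pathway, including the receptors Lrp4, Lrp5 and Lrp6, was called in limma's test in either mutant or between them. Their median log2 difference was -0.56 in Schmid and -0.28 in Cog. Only 3 of the 12 were well above background on all 12 arrays, which limits what the absence of calls shows. The log2 of their summed linear signal was 13.92 to 14.03 in Schmid and 14.23 to 15.22 in Wt_Schmid. It was 14.24 to 14.41 in Cog and 14.38 to 15.04 in Wt_Cog.

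Markers of other cells moved with the Schmid comparison. Of 8 red cell genes 3 were called lower in Schmid. The log2 of the summed linear signal of the list was 14.70 to 16.12 in Schmid and 17.95 to 19.96 in Wt_Schmid. It was 16.64 to 18.19 in Cog and 17.21 to 18.24 in Wt_Cog. Of 7 endothelial genes 3 were lower and 1 higher in Schmid, with sums of 12.92 to 13.46 in Schmid, 14.30 to 15.04 in Wt_Schmid, 13.66 to 14.38 in Cog and 14.66 to 14.97 in Wt_Cog. Pecam1, a defining endothelial marker, was well above background on none of the arrays. Of 8 osteoclast genes 1, Mmp9, was called lower in Schmid (sums of 14.93 to 15.64 against 16.17 to 16.66). The study lists Mmp9 as a marker of hypertrophic cartilage, so this call is not particular to osteoclasts. Atp6v0d2 was well above background on none of the arrays. Of 8 leukocyte genes 1 was lower (13.68 to 15.71 against 14.77 to 18.89), and their sums in Cog and Wt_Cog are given with the Cog comparison. Of the hypertrophic chondrocyte genes 3 of 6, and of 7 chondrocyte genes 1, were also lower, with sums of 17.84 to 18.05 against 19.17 to 19.39 and of 20.51 to 20.68 against 20.82 to 21.07. In Cog 1 of these marker genes was called, Ihh, which was lower and called in 3 of 6 other scalings and backgrounds. The part of the marker genes in the differences of the bone genes was not tested.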

How the data were processed

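Per the file headers and the labels, each array's RNA was amplified, labelled with Cy3 and scanned as a single colour, and the submitters' processing notes name Agilent Feature Extraction 9.5.3. The authors deposited the spot intensity values of each scan and a series matrix of log2 values made with normexp and quantile normalization. Starting from the mean signal and local background of 43379 non-control spots, outlier-flagged spots were left out (99.8% kept), a step added here. As in the study's methods, which set the thresholds too, normexp (offset 50) and quantile normalization were applied and spots of a probe were averaged. Group means of the 12 arrays were fitted with limma 3.58.1 in R 4.3.3 (8 residual degrees of freedom). The members and all gene lists were chosen with earlier results of these data known. Named list genes were up to 3 called each way per list and comparison, at the brightest probe (highest mean over the 12 arrays). Likeness was Pearson's r of deviations from group means. The mice were littermates with an array each, so p-values measure the spread between mice. The series matrix values correlated with these by at least 0.99987 on each array. Replicate block, slide, array weights, other backgrounds, scalings, filters and left-out arrays were tried as alternatives, of which the background from negative control spots was chosen after seeing the data, and the code was tested on simulated data. Some results of these lists are not reported here. Gene names are those of the array's annotation. Whether probes lie in exons or untranslated parts was not analysed here.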

Additional observations from a re-analysis of the deposited data

Results flagged for a closer look

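The results given here had effects that differed between the mutants in limma's test of the difference itself (Schmid effect minus Cog effect, both on the log2 scale, adjusted over all probes). Sost at its brightest probe differed by -2.63 (adjusted p = 0.000708) and Sparc at its second probe by -1.14 (adjusted p = 0.0140). Among the partner genes, Mgp differed by -3.48 (adjusted p = 0.00125), Akp2 by -2.0 (0.0100), Pcolce by -1.90 (0.0329), Bmp1 by -1.78 (0.0142) and Adamts2 by -1.52 (0.0303). Pdpn differed by -1.87 (adjusted p = 0.00210), Fgf23 by -1.42 (0.00106) and Capg by 1.75 (0.0353). Of these, Pcolce and Adamts2 passed in 3 and Bmp1, Fgf23 and Capg in 4 of 6 other scalings and backgrounds. Each mutant lay on other slides than its wildtype, and the part of the slides in these differences cannot be told apart from that of the genotype.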

How the results depend on the processing

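There were 21 alternatives for each comparison and 26 for the difference between the mutants. In Schmid, 3 list probes and 4310 of the array's 41174 were called as reported. The list count became 1 when only the groups compared were fitted (3753 over the array). It became 6 with slide as a random block (4924), whose estimated correlation within slides was negative (-0.122). With the mean over the probes of a gene, 1 of 9 list genes was called, and 2566 of 27962 genes over the array. The count in Cog (1, and 952 over the array) became 0 with the processed signal at a common 75th percentile (361 over the array). It was also 0 with no background correction (595), with the groups compared alone (497), with the row trend removed (738) and with the replicate block (700). It became 3 with the adjusted p alone (1886). The count between wildtypes (0, and 193 over the array) became 1 with array weights (836). That of the difference between the mutants (2, and 4224 over the array) became 1 with the processed signal at a common 75th percentile (3249). It was also 1 with the row trend removed (3156) and with the gene mean (2745 genes). Leaving out single arrays gave 1 to 3 calls in Schmid (2827 to 6375 over the array) and 0 to 1 in Cog (303 to 1204). It gave 0 to 1 between wildtypes (74 to 810) and 2 to 3 for the difference between the mutants (3129 to 6160). The cause of these changes was not tested.

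Differences that turned sign were all of genes that did not pass. For Col1a2 in Schmid (0.01) they were -0.46 with the processed and -0.14 with the normexp signal at a common 75th percentile, -0.13 with the processed signal by quantile, -0.0298 with the row trend removed and -0.0279 with the gene mean. In Cog it was 0.0154 with array weights and 0.10 with the row trend removed, between wildtypes -0.0433 with the series matrix, and between the mutants -0.32, -0.0154, -0.0685 and -0.13 with these scalings in the same order and with the row trend. Sparc in Cog was -0.24, -0.0825 and -0.12 with the same scalings and -0.0828 with the row trend, and between wildtypes 0.0195 (normexp, 75th percentile) and 0.0788 (gene mean). Bglap1 in Cog was 0.10 with the processed signal by quantile and 0.0232 with the row trend, and between wildtypes 0.18, 0.00494 and 0.11 with the scalings, 0.000593 with slide as a block and 0.0267 with the row trend. The second Col1a1 probe in Cog was 0.0381 with slide as a block and 0.15 with array weights, Mepe between wildtypes -0.17 with array weights and Sp7 between the mutants -0.000457 with the row trend. With single arrays left out, Bglap1 ranged from -0.38 to 0.21 in Cog and from -0.78 to 0.45 between wildtypes, Col1a2 from -0.0934 to 0.12 in Schmid, -0.12 to 0.15 in Cog, -0.0942 to 0.14 between wildtypes and -0.14 to 0.13 between the mutants, and Mepe from -0.72 to 0.46 in Schmid, -0.59 to 0.59 between wildtypes and -0.11 to 1.07 between the mutants. Sp7 ranged from -0.69 to 0.0462 in Schmid and -0.26 to 0.48 between the mutants, Phex from -0.78 to 0.00478 between wildtypes, Sparc from -0.0675 to 0.21 in Cog and the second Col1a1 probe from -0.36 to 0.10 in Cog.

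With the replicate number as a block, 4 list probes were called in Schmid, Bglap1 being added, 0 in Cog, 0 between wildtypes and 2 between the mutants. Over the whole array this block gave 4088, 700, 176 and 4012 calls in the same order. The deviations of same-numbered arrays had, over all probes, a Pearson correlation of 0.193, 0.171 and 0.066 for the Schmid pairs, of -0.116, 0.0716 and -0.106 for the Cog pairs and of 0.406, 0.0465 and 0.190 for the wildtypes. Over the 12814 probes well above background throughout, these were 0.307, 0.283 and 0.117, then -0.208, 0.151 and -0.200, and 0.504, 0.116 and 0.274. No source says that a number marks a litter or a day. Over the whole array, calls ranged from 2566 to 9871 in Schmid (4310 as reported), 303 to 2113 in Cog (952), 6 to 836 between wildtypes (193) and 2432 to 6819 between the mutants (4224). A common 75th percentile moved the median of all probes in Schmid to -0.40 (processed) and -0.35 (normexp), so differences on these scales are relative to it. Only partner genes called in a comparison were followed over 6 scalings and backgrounds. None of these changed sign, but calls were lost in some. As they were chosen for their calls, this says nothing of the partner genes that were not called. In Schmid, Col5a1 was called in 1 of the 6, Msx2 and Fgf23 in 4 and P4hb in 5. In the difference between the mutants, Pcolce and Adamts2 were called in 3 and Bmp1, Fgf23 and Capg in 4. The dim Sost, Col1a1 and Col1a2 probes are limited by signal over background.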
